A study of Homo sapiens with 5 samples.

Results

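The genes described here encode actin, the proteins that bundle, cap and anchor actin filaments, and the myosin motors and regulators that make those filaments contract. The set holds 41 genes, found by their symbol among the 20044 genes that have a named probe on the array. Of the 41 genes, 38 had a named probe and 34 were detected on at least 1 of 5 arrays, out of 11808 genes detected in all. TPM3, FLNA and FHL1 had no named probe and are not analysed here. CNN1, CNN3, LMCD1 and TGFB1I1 had probes, none of which was detected on any array. Each gene was read by its brightest probe among those detected on at least 1 array.

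Actin monomers assemble into filaments, which tropomyosins, caldesmon and calponins coat, alpha-actinins crosslink, and vinculin, talin and zyxin join to adhesions. Non-muscle and smooth muscle myosin II pulls on the filaments once its regulatory light chain is phosphorylated, a step carried out by the kinase MYLK. ACTA2, ACTG2, TAGLN and CNN1 are classical smooth muscle genes, which in the prostate mark the stroma and which TGF-beta induces in fibroblasts and in several epithelial cells. Many of these genes are targets of serum response factor (SRF), which binds a DNA element named the CArG box together with myocardin-related cofactors that sense the pool of free actin.

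All RNA came from LNCaP, an androgen-responsive prostate cancer cell line, or from LNRII, a stable puromycin-selected line made by putting the TGF-beta type II receptor TGFBR2 into LNCaP with a lentivirus under a CMV promoter. LNRII was cultured for 3 days with the ligand TGFB3 at 5 ng/ml or with vehicle, and is described below as TGFB3 and control. LNCaP carried a lentiviral control hairpin (shCtr) or a hairpin against the pioneer transcription factor FOXA1 (shFOXA1), was selected with puromycin, and is labelled day 10. A further shFOXA1 culture, also labelled day 10, received LY2157299 (galunisertib), an inhibitor of the kinase TGFBR1, for 3 days at 10 µM. The labels give all 5 cultures the genotype WT and do not say for each array whether shCtr and shFOXA1 cells had vehicle. LNRII cells carry added receptor in the control as well, and every LNCaP culture carries a hairpin, so no culture is unmodified. Each condition is 1 culture on 1 bead array. No difference between conditions therefore has a replicate or a test, and higher and lower are used by size alone.

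Between 32.3% and 38.1% of 47306 probes were detected per array, with the fewest on the LNRII control array. Having 1 array for each condition is what limits precision here. FOXA1 read a log2 intensity of 11.82 with shCtr, 11.26 with shFOXA1 and 11.30 with LY2157299 added, which puts shFOXA1 at 67.8% of shCtr. TGFBR2 had no detected probe on either LNRII array, and whether its probes lie in the transferred part of the transcript is not known here. In LNCaP it had no detected probe with shCtr. Its detected probes read 4.89 and 4.76 with shFOXA1, and 4.72 and 5.01 with LY2157299, all near the floor. All 7 luminal markers with a named probe were detected on all 5 arrays, among them KLK3, KRT8, KRT18 and TMPRSS2, with a summed linear signal of 5433 (LY2157299) to 7551 (LNRII with TGFB3). Of the smooth muscle markers DES, MYH11, LMOD1 and CNN1 had no detected probe, while SMTN and SYNM were detected on every array. The summed linear signal of SMTN and SYNM lay between 132 (shCtr) and 193 (shFOXA1). The sum joins opposite directions, with SYNM at 6.40 with shCtr and 7.24 with shFOXA1, and SMTN at 5.58 and 5.41. Of 9 fibroblast markers 1 was detected, COL1A1, in LNRII with TGFB3 (5.14) and with shFOXA1 (4.70), with a linear signal of 22 to 35 over the arrays. Of the basal markers KRT14 and KRT15 were detected near the floor, KRT5 on no array, and the summed signal was 38 (LNRII control) to 67 (shFOXA1). The endothelial sum, from CDH5 and VWF, was 85 to 387 with the highest value in LNRII with TGFB3. VWF read 7.09 in LNRII control and 8.53 with TGFB3, while CDH5 was detected in LNRII control alone (5.23). The leukocyte sum, from CD68 and CD14, was 240 to 466 with the highest value in shFOXA1. PECAM1, KDR, PTPRC and CD3E were not detected. The part of these other-cell markers in the results was not tested, and in bulk RNA fewer cells of a type and less RNA per cell cannot be told apart.

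The starts of several of these genes carry CArG boxes, and 6 stretches are shown. They belong to ACTG2, MYLK, FHL2 and CNN2, which have a CArG box and were at least 1.5-fold apart in a comparison. ACTG1 is shown as well, which has a box and hardly differed on its brightest probe. ACTN1, and TPM4 between the untreated lines, also have a box and were at least 1.5-fold apart, but their stretches are not shown. Each is the 200 bases before a RefSeq start, 5′ to 3′ on the gene's own strand in GRCh38.p14, with CArG boxes in capitals.
ACTG2 (chr2:73892808-73893007, plus strand): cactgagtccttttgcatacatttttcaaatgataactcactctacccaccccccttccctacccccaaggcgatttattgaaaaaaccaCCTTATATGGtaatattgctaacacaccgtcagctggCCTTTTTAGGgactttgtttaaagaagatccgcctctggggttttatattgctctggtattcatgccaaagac
MYLK, internal start (chr3:123620549-123620748, minus strand): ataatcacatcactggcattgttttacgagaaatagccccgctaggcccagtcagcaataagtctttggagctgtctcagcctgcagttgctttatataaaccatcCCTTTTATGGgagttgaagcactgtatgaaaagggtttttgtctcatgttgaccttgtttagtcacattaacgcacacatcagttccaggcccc
FHL2, outer start (chr2:105438530-105438729, minus strand): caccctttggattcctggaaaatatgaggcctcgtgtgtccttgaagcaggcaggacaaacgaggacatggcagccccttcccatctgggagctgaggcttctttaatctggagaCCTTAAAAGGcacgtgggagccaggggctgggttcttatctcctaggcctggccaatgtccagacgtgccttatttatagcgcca
FHL2, inner start (chr2:105399052-105399251, minus strand): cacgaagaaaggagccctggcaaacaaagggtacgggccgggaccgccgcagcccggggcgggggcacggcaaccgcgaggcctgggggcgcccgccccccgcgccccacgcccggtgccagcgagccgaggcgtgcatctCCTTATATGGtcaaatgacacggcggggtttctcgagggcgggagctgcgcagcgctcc
CNN2 (chr19:1026408-1026607, plus strand): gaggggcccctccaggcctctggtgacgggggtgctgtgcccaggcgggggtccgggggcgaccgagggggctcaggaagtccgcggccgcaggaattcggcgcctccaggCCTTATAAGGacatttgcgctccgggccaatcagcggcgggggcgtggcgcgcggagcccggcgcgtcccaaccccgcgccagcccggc
ACTG1 (chr17:81512800-81512999, minus strand): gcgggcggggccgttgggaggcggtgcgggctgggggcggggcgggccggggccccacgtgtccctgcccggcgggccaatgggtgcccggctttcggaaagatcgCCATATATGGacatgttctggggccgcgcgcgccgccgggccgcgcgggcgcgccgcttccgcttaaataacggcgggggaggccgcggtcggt
ACTG2, the enteric smooth muscle actin, has 2 CArG boxes, which begin 110 and 73 bases before its start. The MYLK start in the table lies inside the gene, 10.5 kb from its 3′ end in a span of 274.3 kb. As background, MYLK makes telokin, a small protein without a kinase domain, from an internal start near its 3′ end, besides the long kinase. FHL2 has a box before each of its starts shown, 85 and 59 bases upstream, in CNN2 it begins 89 bases upstream and in ACTG1 94. In the same build RefSeq places ACTA2 at chr10:88935074-88991337, ACTG2 at chr2:73893008-73919865, MYLK at chr3:123610049-123884332 and FHL2 at chr2:105357712-105438529. TPM4 and ACTN1 have boxes beginning 173 and 171 bases before 1 of their starts, and FLNA, FHL1 and TGFB1I1, without measured probes, have a box too.

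RefSeq windows reaching from 250 bases before a start to 50 after it were present for 38 of the 41 genes. These were 77 windows in all, some of them overlapping, and were searched on both strands. TAGLN, MYL9 and ACTB had no window, so whether their starts carry any of these letters was not examined. A CArG box was found for 10 of the 38 genes (26.3%), where 1.6% of all 27305 genes in the table have one. Per window the shares were 15.6% and 1.29%. ACTA2 has no exact match in its windows. The forkhead letters TGTTTAC were found for ACTA2 and CALD1, 5.26% of the genes, against 4.19% of all genes. Per window the order turned, with 2.6% for the set and 3.42% for all windows. The TEAD letters GGAATG were found for 36.8% of the genes and 16.7% of all genes. Per window these shares lay closer, at 19.5% and 14%. The set has more windows per gene than all genes have, which raises its shares by gene. These matches describe letters in a window and not binding.

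With TGFB3 in LNRII, 2 of 33 measured genes of the set were at least 2-fold higher, ACTA2 and FHL2, and 0 were 2-fold lower. Over all 10711 genes measured in this comparison 1.87% were 2-fold higher and 1.16% lower. At 1.5-fold, 9 of the 33 genes were higher, where 6.6% of all genes were: ACTA2, FHL2, MSN, CNN2, ZYX, PALLD, PDLIM7, TPM1 and ACTN1. None of the 33 was 1.5-fold lower, against 6.64% of all genes. The median log2 difference of the set was 0.27, with 28 genes above 0, beside a median of 0.00 over all genes, of which 47.7% lay above 0. ACTG2, MYLK, TPM2 and FHL3 entered through their TGFB3 array alone, so they could not lie below 0 and their differences are lower bounds.

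With FOXA1 knockdown in LNCaP, 3 of 33 genes were at least 2-fold higher, MYLK, ACTG2 and ACTA2, and 0 lower, beside 1.11% and 0.377% of 11132 genes. At 1.5-fold 7 were higher (3.31% of all genes), which adds FHL2, TAGLN, ACTN1 and TPM1, and 0 lower (1.84%). The median was 0.35 and 29 of 33 lay above 0, beside a median of -0.01 and 47.3% of all genes. TPM2 entered through its shFOXA1 array alone, so it could not lie below 0 and its difference is a lower bound. CALD1 and PDLIM7 (each -0.33) and MYH10 (-0.25) lay below 0.

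Adding LY2157299 to the knockdown cells left 0 of 34 genes at least 2-fold higher and 2 lower, MYLK and FHL2, beside 0.0545% and 0.209% of 11002 genes. At 1.5-fold ACTA2 joined them on the lower side, where 1.24% of all genes stood, and 0 were higher (0.636%). The median was -0.12 with 24 of 34 below 0, beside 0.00 and 48.2% of all genes. Of these 2 arrays, FHL2, TPM2 and PDLIM7 were detected on the shFOXA1 array alone and could not lie above 0. FHL3 was detected on the inhibitor array alone and could not lie below 0. The differences of these genes are lower bounds. Measured against shCtr, the cells with knockdown and inhibitor had 2 of 33 genes at least 2-fold higher, MYLK and ACTG2 (0.917% of 11019 genes), and 0 lower (0.517%). At 1.5-fold TPM1 and PALLD were higher as well (3.04%), and FHL2 was lower (2.34%). Their median was 0.15, beside 0.00. In that comparison FHL2 and PDLIM7 were detected with shCtr alone and FHL3 with the inhibitor alone, so their direction was fixed as well. These last comparisons share arrays with the knockdown comparison, so the values are set side by side below and are not counted against each other.

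**Figure D1:**
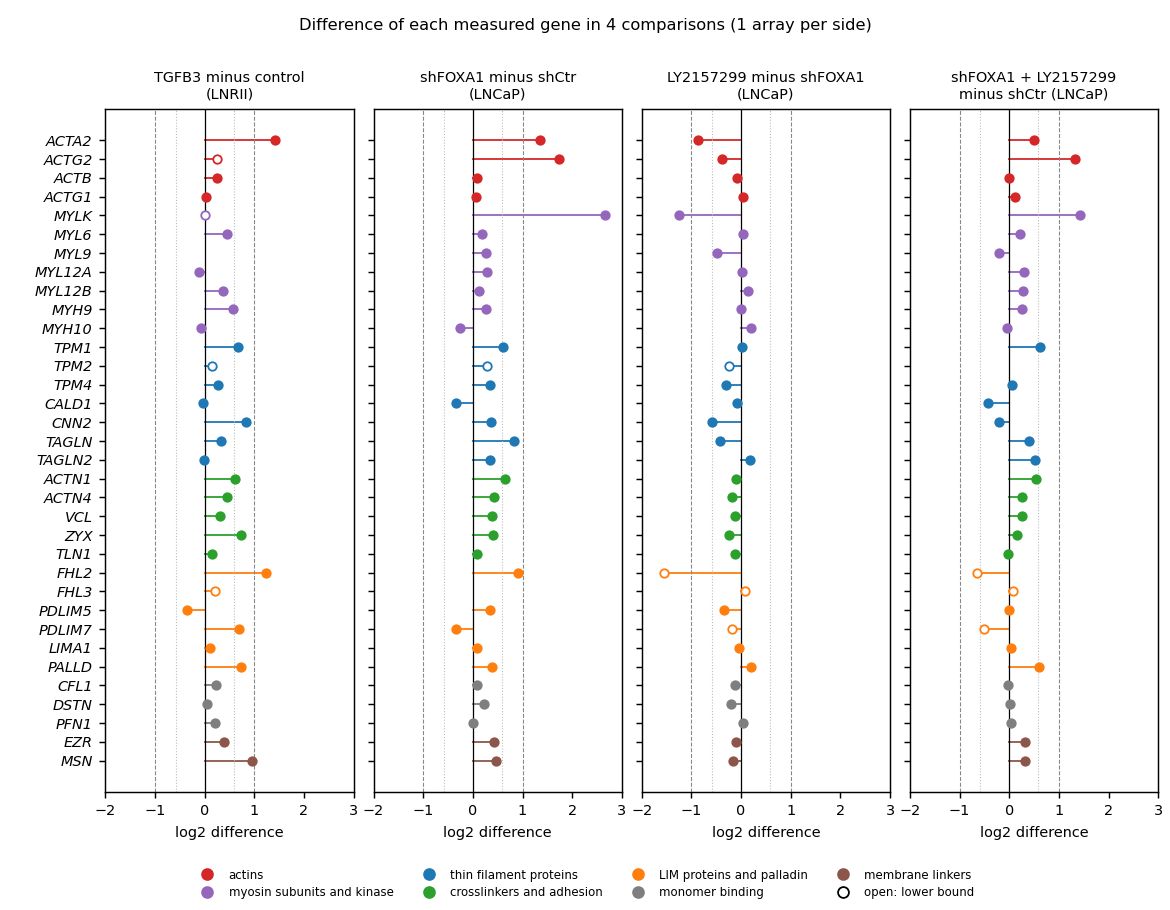
Log2 difference (x axis) of each measured gene in 4 comparisons, 1 panel each, coloured by role; open circles are lower bounds, dashed lines mark 2-fold and dotted lines 1.5-fold. Most genes lie right of 0 with TGFB3 (28 of 33) and after knockdown (29 of 33), MYLK reaches 2.67 after knockdown, and with LY2157299 FHL2 (-1.56 or lower) and MYLK (-1.24) lie farthest left.

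As the only error at hand, probes of a gene disagreed with an SD of a log2 difference of 0.22 with TGFB3, 0.17 after knockdown, 0.15 with LY2157299 and 0.18 for knockdown with inhibitor against shCtr. It reflects how well probes measure and says nothing of how cultures vary. Differences of this size or below cannot be told from probe noise.

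The actins split between the smooth muscle and the cytoplasmic forms. ACTA2, smooth muscle alpha-actin and a myofibroblast marker, read 7.57 in LNRII control, 8.97 with TGFB3, 10.41 with shCtr, 11.77 with shFOXA1 and 10.91 with LY2157299. It was highest on the knockdown array and lowest in LNRII without ligand, and was detected everywhere. It was 2.65-fold higher with TGFB3 (1.41) and 2.56-fold higher after knockdown (1.35). With LY2157299 it stood at 55.3% of the knockdown level (-0.86) and 0.50 above shCtr. ACTG2 read 4.33, not detected, in LNRII control, 5.28 with TGFB3, 6.62 with shCtr, 8.35 with shFOXA1 and 7.95 with LY2157299. It was 3.31-fold higher after knockdown (1.73), and still 2.52-fold above shCtr with the inhibitor (-0.39 against shFOXA1). In LNRII its increase was at least 0.25, since the control array gives only a bound.

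The cytoplasmic actins ACTB and ACTG1, the filament proteins of every cell, were nearly level on their brightest probes. ACTB read 12.57, 12.82, 12.73, 12.81 and 12.73 on the arrays in the same order, and its other probes gave 0.20 and 0.01 with TGFB3 beside 0.25 on the brightest. ACTG1 read 13.07, 13.10, 13.17, 13.24 and 13.28, with differences from 0.03 to 0.11 in the 4 comparisons. Their sign with TGFB3 and with LY2157299 depended on the processing. The second ACTG1 probe gave 0.08 with TGFB3 and 0.08 after knockdown. It gave 0.26 with LY2157299 and 0.35 for knockdown with inhibitor against shCtr, above the probe SDs of 0.15 and 0.18. The actin genes have closely related coding sequences, and probe sequences were not examined here.

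**Figure D2:**
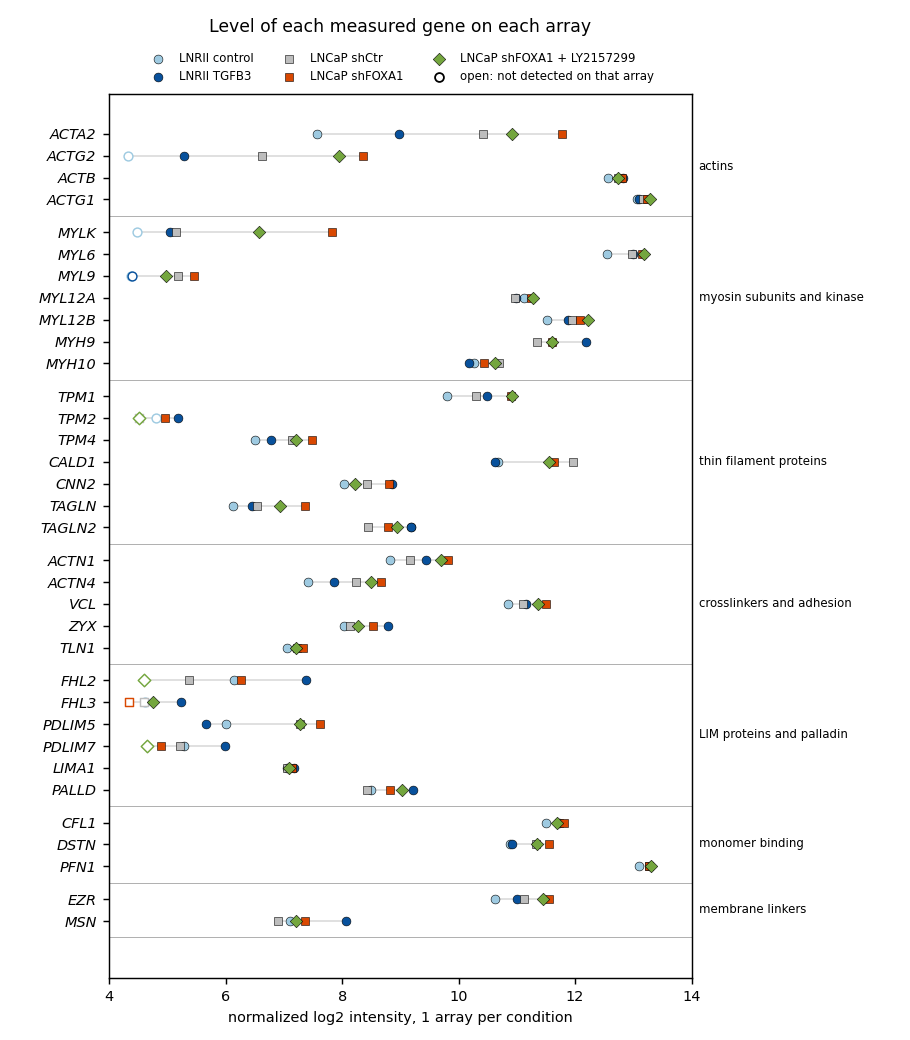
Normalized log2 intensity (x axis) of the brightest detected probe of each of 34 genes on 5 arrays, 1 array per condition, grouped by role; open symbols were not detected. ACTA2, ACTG2 and MYLK spread widest, with shFOXA1 on the right, while ACTB, ACTG1, PFN1 and LIMA1 lie close together; levels of different genes are read by different probes and are not comparable.

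MYLK stood apart among the myosin genes. Its brightest probe read 4.48, not detected, in LNRII control, 5.04 with TGFB3, 5.15 with shCtr, 7.82 with shFOXA1 and 6.58 with LY2157299. The knockdown value was 6.37-fold above shCtr (2.67), the 5th largest difference of all 11132 genes by size. With LY2157299 it was 42.4% of the knockdown value (-1.24) and 2.70-fold above shCtr (1.43). The second MYLK probe was detected only with shFOXA1, where it read 5.19, and read 4.28 with shCtr and 4.49 with LY2157299. Which MYLK product either probe reads was not examined. Because shCtr lies close to the floor of 4.68 on that array, the size depends on the background step: it was 1.47 without background correction and 3.30 in the authors' processed table.

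No heavy or light chain of non-muscle myosin reached 1.5-fold on its brightest probe in these 4 comparisons. MYH9, the heavy chain of non-muscle myosin IIA, read 11.61 in LNRII control and 12.18 with TGFB3 (0.57), and 11.34, 11.60 and 11.60 on the LNCaP arrays in the order shCtr, shFOXA1 and LY2157299. Its second probe gave 0.63 with TGFB3 and 0.41 after knockdown. MYH10, the heavy chain of myosin IIB, ran the other way after knockdown, at 10.69 with shCtr, 10.44 with shFOXA1 and 10.63 with the inhibitor, and 10.26 and 10.18 in LNRII. The essential light chain MYL6 differed by 0.45 with TGFB3 and 0.18 after knockdown, and the regulatory light chains MYL12A and MYL12B by -0.12 and 0.36, and by 0.28 and 0.13. MYL9, the regulatory light chain of smooth muscle, was not detected in LNRII. In LNCaP it read 5.18, 5.45 and 4.97, and its second probe 4.72, 5.35 and 4.54, the last not detected, so both probes were highest on the knockdown array.

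Among the proteins that coat actin filaments, TPM1, an alpha-tropomyosin, was read by 4 probes. The brightest gave 9.80 in LNRII control, 10.48 with TGFB3, 10.30 with shCtr, 10.90 with shFOXA1 and 10.91 with LY2157299. It was 1.59-fold higher with TGFB3 (0.67) and 1.51-fold higher after knockdown (0.60), and stood at 0.01 with LY2157299 against shFOXA1. The other 3 probes gave 0.45 to 0.67 with TGFB3, 0.57 to 0.82 after knockdown and -0.06 to 0.17 with the inhibitor. TPM1 thus kept its higher level on the inhibitor array on every probe, 0.61 to 0.88 above shCtr. TPM4 read 6.51, 6.78, 7.14, 7.49 and 7.20, and its second probe was lower by 0.64 with LY2157299 where the first gave -0.30. TPM2, the beta-tropomyosin, was detected with TGFB3 (5.18) and with shFOXA1 (4.96) and on no other array.

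TAGLN, which encodes the smooth muscle protein transgelin or SM22, read 6.13 and 6.45 in LNRII without and with TGFB3, and 6.54, 7.37 and 6.93 in LNCaP. It was 1.78-fold higher after knockdown (0.83) and 0.40 above shCtr with LY2157299. Its relative TAGLN2 read 9.19 and 9.18 in LNRII, and 8.44, 8.78 and 8.95 in LNCaP, highest there with the inhibitor. CNN2, a calponin of non-muscle cells, read 8.04, 8.86, 8.43, 8.80 and 8.22. It was 1.77-fold higher with TGFB3 (0.83) and 0.37 higher after knockdown. With LY2157299 it stood at -0.58 against shFOXA1 and -0.21 against shCtr.

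CALD1, caldesmon, which inhibits the myosin ATPase on actin, lay below 0 after knockdown. Its brightest probe read 10.68, 10.63, 11.97, 11.64 and 11.56 on the arrays from LNRII control to LY2157299. A second bright probe gave -0.19 with TGFB3, -0.18 after knockdown and -0.36 with LY2157299. The mean over its detected probes with TGFB3 was 0.19, where the brightest probe gave -0.04. A dimmer probe read 5.12 without and 5.94 with TGFB3 (0.81), and 6.34, 6.34 and 6.08 in LNCaP. With TGFB3 this was the widest gap between probes of a gene in the set, 0.85.

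Of the 5 crosslinking and adhesion genes, ACTN1 and ZYX were 1.5-fold higher with TGFB3 and ACTN1 after knockdown. ACTN1, the alpha-actinin of stress fibres, read 8.82 and 9.44 in LNRII without and with TGFB3, and 9.16, 9.81 and 9.70 in LNCaP. It was 1.53-fold higher with TGFB3 (0.61), 1.57-fold higher after knockdown (0.65) and remained 0.54 above shCtr with LY2157299. ZYX, zyxin, a LIM protein of focal adhesions, read 8.03, 8.78, 8.13, 8.53 and 8.28, with TGFB3 highest. Its second probe gave 0.85 with TGFB3 beside 0.74, and 0.28 after knockdown beside 0.40. ACTN4 differed by 0.45 and 0.43 and the vinculin gene VCL by 0.30 and 0.39 with TGFB3 and knockdown. The talin gene TLN1 differed by 0.15 and 0.09, below the probe SDs of 0.22 and 0.17. With LY2157299 the 5 genes lay between -0.25 and -0.11 against shFOXA1.

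FHL2, a LIM-domain protein that shuttles between focal adhesions and the nucleus, was lost from detection with the inhibitor. It read 6.15 in LNRII control, 7.38 with TGFB3, 5.37 with shCtr, 6.27 with shFOXA1 and 4.60, not detected, with LY2157299. It was 2.36-fold higher with TGFB3 (1.24) and 1.86-fold higher after knockdown (0.90). With LY2157299 it was at least 2.94-fold lower than with shFOXA1 and at least 1.58-fold lower than with shCtr. A second FHL2 probe read 4.92 with shCtr and 5.23 with shFOXA1 (0.31) and was not detected with LY2157299 at 4.55. That probe was not detected in LNRII control at 4.90 and read 6.0 with TGFB3. Without background correction the FHL2 differences were 0.74, 0.39 and -0.60, the last smaller in size than those of ACTA2 and MYLK (each -0.83).

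The other LIM proteins varied. PDLIM7, an adaptor that binds tropomyosin, read 5.29 and 5.98 in LNRII without and with TGFB3, 5.22 with shCtr, 4.89 with shFOXA1 and 4.65, not detected, with LY2157299, so it was 1.62-fold higher with TGFB3 and lower after knockdown. PDLIM5 ran the other way, at 6.01 and 5.66 in LNRII and 7.28, 7.62 and 7.27 in LNCaP, and its second probe gave -0.18 with TGFB3. The remaining PDLIM5 probe read 4.97, not detected, without and 5.25 with TGFB3, and the mean over probes was -0.08. FHL3 was detected only with TGFB3 (5.23) and LY2157299 (4.75). LIMA1, which stabilises filaments, read 7.06 to 7.17 on all arrays. PALLD, palladin, which binds alpha-actinin, read 8.49 and 9.22 in LNRII and 8.43, 8.82 and 9.02 in LNCaP, and was 1.66-fold higher with TGFB3 (0.73). It was 0.39 above shCtr after knockdown and 0.59 above it with the inhibitor.

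Monomer-binding proteins stayed close to level. CFL1 and DSTN, which sever filaments, and PFN1, which feeds monomers to growing ends, differed by 0.23, 0.05 and 0.20 with TGFB3, by 0.09, 0.22 and 0.00 (PFN1, of either sign by processing) after knockdown, and by -0.12, -0.21 and 0.04 with LY2157299. The membrane linkers lay higher. MSN, moesin, read 7.11 and 8.07 in LNRII and 6.90, 7.37 and 7.21 in LNCaP, and was 1.94-fold higher with TGFB3 (0.95) and 0.47 higher after knockdown. EZR, ezrin, its epithelial relative, read 10.63, 11.01, 11.13, 11.56 and 11.45. Its second probe gave 0.31 with TGFB3 and 0.52 after knockdown, beside 0.39 and 0.43.

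**Figure D3:**
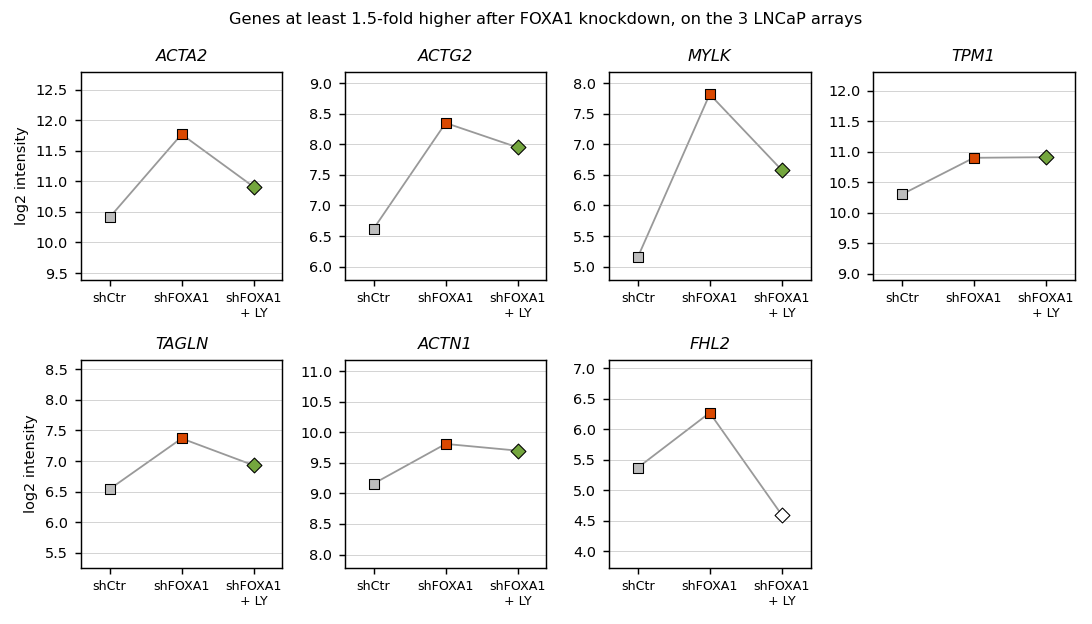
Normalized log2 intensity (y axis, 3.4 log2 units in every panel) on the 3 LNCaP arrays for the 7 genes at least 1.5-fold higher after knockdown, 1 array per point; the open symbol was not detected. ACTA2, MYLK and TAGLN with LY2157299 lie between shCtr and shFOXA1, TPM1 and ACTN1 stay near shFOXA1, and FHL2 drops from 6.27 to 4.60, below shCtr at 5.37.

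The 7 genes that were 1.5-fold higher after knockdown thus ended at different levels with LY2157299. Against shCtr they stood at 1.43 for MYLK, 1.33 for ACTG2, 0.61 for TPM1, 0.54 for ACTN1, 0.50 for ACTA2, 0.40 for TAGLN and -0.66 or lower for FHL2. These genes were picked for a high shFOXA1 value, which is also the reference of the inhibitor comparison, so some fall from that value is built into the choice.

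TGFB3 in LNRII and knockdown in LNCaP share no array, and 32 genes of the set were measured in both. Of these 25 (78.1%) lay above 0 in both and 2 below 0 in both, CALD1 and MYH10. With TGFB3 CALD1 (-0.04) and MYH10 (-0.07) lay within the probe SD of 0.22, and the sign of CALD1 depended on the processing. ACTG2, MYLK and TPM2 were not detected in LNRII control, so they could not lie below 0 with TGFB3. TPM2 was not detected with shCtr either, so its direction was fixed in both. Over all 10180 genes measured in both 29.3% lay above 0 in both. In each comparison alone most of the set lay above 0, 28 of 33 genes with TGFB3 and 29 of 33 after knockdown. Most would thus lie above 0 in both without any agreement gene by gene, and the share does not measure such agreement. Across the 32 genes Pearson's r was 0.21 and Spearman's rank correlation 0.47, and across all genes 0.41 and 0.37, given as a description of arrays normalized together. Without ACTA2, ACTG2 and MYLK, the 3 genes 2-fold higher after knockdown, they were 0.48 and 0.57 over 29 genes. These 3 genes were left out for their knockdown values, which are part of the correlation. Nothing was left out over all genes, so the values over 29 genes cannot be set against those. The 4 genes 1.5-fold higher in both were ACTA2, FHL2, TPM1 and ACTN1. MYLK and ACTG2 were high after knockdown alone, but their LNRII control was below detection and hides how far they moved with TGFB3. MSN, CNN2, ZYX and PALLD differed more with TGFB3, at 0.73 to 0.95, than after knockdown, at 0.37 to 0.47. Whether the responses of the lines differ was not tested.

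**Figure D4:**
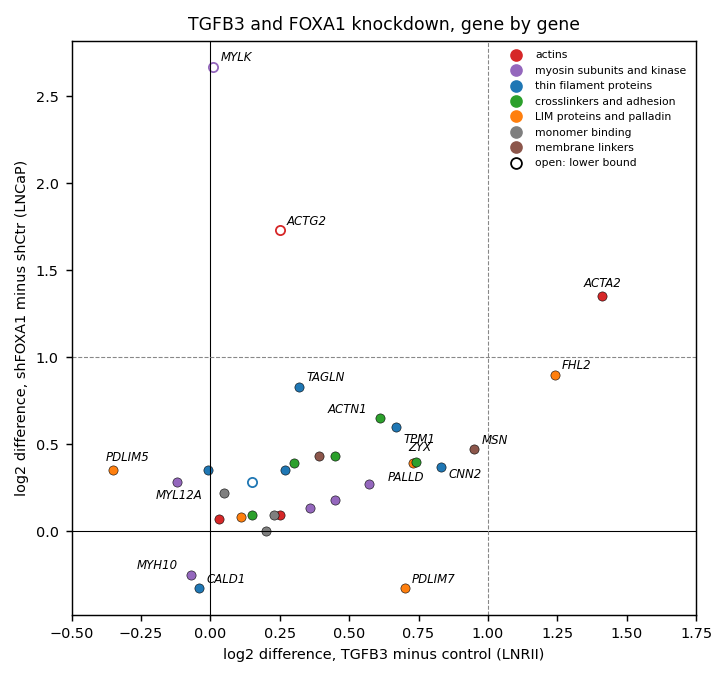
Log2 difference with TGFB3 in LNRII (x axis) beside the log2 difference after FOXA1 knockdown in LNCaP (y axis) for 32 genes, 1 point per gene coloured by role; open points are lower bounds in 1 of the comparisons and dashed lines mark 2-fold. ACTA2 lies at 1.41 and 1.35 and FHL2 at 1.24 and 0.90, MYLK and ACTG2 lie high on the y axis only, and 25 points lie above 0 on both axes.

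Cells without ligand or knockdown differed between the lines as well. In LNRII control, ACTA2 was 7.20-fold lower than with shCtr (-2.85), ACTG2 at least 3.01-fold lower, CALD1 2.46-fold lower and PDLIM5 2.41-fold lower, 4 of 32 genes against 3.07% of 10847 genes, and 0 were 2-fold higher (2.18%). At 1.5-fold ACTN4 and TPM4 were lower as well, 6 genes in all (10.2% of all genes), and TAGLN2 (0.76) and FHL2 (0.78) were higher, 2 genes (9.54%). The median was -0.24, beside 0.00. ACTG2, MYLK and MYL9 entered through their shCtr array alone, so they could not lie above 0 and their differences are lower bounds. Without background correction ACTG2 (-0.70) and PDLIM5 (-0.74) were no longer 2-fold lower, which left ACTA2 and CALD1, and the same 2 genes were left with an offset of 50. On both bright CALD1 probes and all 3 PDLIM5 probes LNRII read below LNCaP, with and without TGFB3. ACTA2 with TGFB3 (8.97) still lay below shCtr (10.41). The added receptor, the hairpin, the days in culture and any other difference between these cultures cannot be told apart. The probe SD in this comparison was 0.27.

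Of the genes with several probes, 14 had another probe detected on both LNRII arrays, 19 probes in all, and 17 of these had the direction of the brightest. After knockdown it was 20 of 22 probes and with LY2157299 18 of 20. For knockdown with inhibitor against shCtr it was 16 of 20. The median gap between an other probe and the brightest was 0.11, 0.12, 0.08 and 0.12 in the same order. In the last of these comparisons TPM4 had the widest gap, 0.39, with 0.05 on the brightest probe and -0.34 on the other. MYLK, ACTA2, ACTG2, TAGLN, CNN2, ACTN1, MSN and PALLD, all among the genes that differed most, had no second probe detected on both arrays of a comparison.

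**Figure D5:**
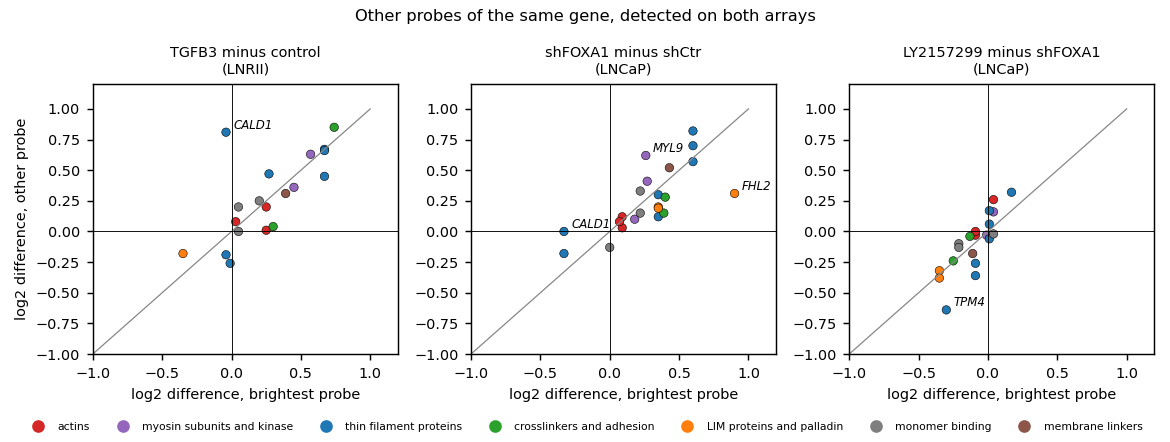
Log2 difference on the brightest probe (x axis) beside that on each other probe of the same gene detected on both arrays (y axis), in 3 comparisons, 1 point per probe coloured by role, with the line of equality. The points named are over 0.3 off the line: CALD1 with TGFB3 (-0.04 beside 0.81), FHL2, MYL9 and CALD1 after knockdown (0.90 beside 0.31, 0.26 beside 0.62 and -0.33 beside 0.00) and TPM4 with LY2157299 (-0.30 beside -0.64).

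Other genes of the actin system give the surroundings of these values. Their counts are to be read against all genes, of which 1.87% were 2-fold higher and 1.16% lower with TGFB3, 1.11% and 0.377% after knockdown, 0.0545% and 0.209% with LY2157299, and 0.917% and 0.517% for knockdown with inhibitor against shCtr. Of 33 measured genes for capping, severing, monomer binding and crosslinking, 4 were 2-fold higher with TGFB3 and 0 lower, with a median of 0.23: the linker RDX (radixin, 1.63), TMSB4X, which encodes the monomer-sequestering thymosin beta-4 (1.48), the cyclase-associated protein CAP2 (1.30) and the spectrin SPTAN1 (1.10). After knockdown 2 of 33 were 2-fold higher and 0 lower, with a median of 0.12, TMSB4X (1.12) and SVIL, supervillin (1.09). TMSB4X read 10.65 in LNRII control, 12.14 with TGFB3, 10.97 with shCtr, 12.09 with shFOXA1 and 12.46 with LY2157299, so it was higher still with the inhibitor. SVIL stayed at 6.79 on both shFOXA1 arrays. With LY2157299 against shFOXA1 0 of 32 were 2-fold apart, and the largest difference was that of TMSB15A (0.86).

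Of the Arp2/3 complex, which nucleates branched filaments, 9 subunit genes were measured, and 1 was 2-fold higher with TGFB3, ARPC1B (7.65 without, 8.68 with, 1.03). None was 2-fold apart in LNCaP, where ARPC1B (0.37) differed most after knockdown and ACTR3B (0.62) with LY2157299. Of 10 formin and WASP or WAVE genes 1, the formin DIAPH3, was 2-fold lower with TGFB3 (-1.08) and 0 higher. In LNCaP 0 of 11 were 2-fold apart, with WASF2 at 0.44 after knockdown and WAS at 0.34 with LY2157299.

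Focal adhesion and further LIM genes had 0 of 23 members 2-fold apart with TGFB3 and 0 of 22 after knockdown, with medians of 0.14 and 0.21. At 1.5-fold 6 of the 23 were higher and 0 lower with TGFB3, beside 6.6% and 6.64% of all genes. After knockdown 2 of the 22 were 1.5-fold higher and 1 lower, beside 3.31% and 1.84% of all genes. PXN, paxillin (0.84), led them with TGFB3 and FERMT2, a kindlin (0.80), after knockdown, and CSRP1 (-0.41) differed most with LY2157299. Of the other myosin genes MYL7, an atrial light chain, was not detected with shCtr and read 6.27 with shFOXA1, at least 1.59 higher, and 5.42 with LY2157299 (-0.85). MYO19 (-0.71) differed most with TGFB3. Of SRF, its cofactors and SRF targets outside the set, 1 of 14 was 2-fold higher with TGFB3, CCN1 (1.28), and 1 of 17 after knockdown, THBS1 (1.52), with 0 lower in both. With LY2157299 12 of 15 lay below 0 against shFOXA1 (median -0.14), where 48.2% of all genes did, none was 2-fold apart, and ANKRD1 (-0.96) lay lowest. THBS1 (1.29) and EGR1 (1.11) were 2-fold above shCtr on the inhibitor array.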

How the data were processed

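RNA was measured on 5 Illumina bead arrays, 1 culture each. The deposited scanner table holds a mean bead intensity for each probe, which per the file headers was left without normalization, and beside it the deposited detection p-value. GenomeStudio is named in the submitters' processing notes, with no version. A further deposited table holds the authors' processed intensity values. Its making is not described in what was used here, so background, scaling and centring are known only from the values: linear, background-subtracted and quantile normalized within each line. Its column medians were 4.7 for LNRII and 4.5 for LNCaP, 25.3% of its values were negative, and its probe ranks equalled those of the scanner values (Spearman's rank correlation 1).

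The deposited intensity values were turned into log2 values by the neqc function of limma 3.58.1 under R 4.3.3 (normexp background correction from the detection p-values, offset 16, quantile normalization over 5 arrays, log2). The platform annotation gives a single symbol to 30107 of 47306 probes, several to 8 and none to 17191. Detection meant a p below 0.01. Genes were compared where either array detected them. A side not detected was raised to the lowest detected log2 value of its array (4.67 to 5.03), which makes the difference a bound. Differences were computed before rounding. Genes are called by size, at 2-fold and 1.5-fold, and no test is possible with 1 array per condition. The genes, lists and named genes were chosen with earlier results of these data known; all 41 genes are named, and of each further list the genes 2-fold apart, up to 4, or else the largest difference. The comparison of untreated LNRII with shCtr was added after seeing the data. The result of 1 further gene list is not reported here. The calculations were checked on simulated data. Promoter windows and gene spans are from RefSeq, GRCh38.p14; no build is named for the array. Python 3.11.15, pandas 2.3.3, numpy 2.4.6, scipy 1.17.1 and matplotlib 3.10.9 were used.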

Additional observations from a re-analysis of the deposited data

How the results depend on the processing

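The 8 processing alternatives were background correction, normalization in 2 forms, the authors' processed table, offset, detection in 2 forms and probe averaging. The median of the set kept its sign under all 8, at 0.23 to 0.38 with TGFB3, 0.26 to 0.36 after knockdown, -0.16 to -0.09 with LY2157299 and 0.12 to 0.23 for knockdown with inhibitor against shCtr. No gene that was 2-fold apart turned its direction under any of them. Of the values of single genes, 992 moved by less than the probe SD and 60 by more. Genes at least 2-fold higher with TGFB3 numbered 2, against 1 without background correction, 1 with an offset of 50 and 4 in the authors' processed table. After knockdown 7 genes were 1.5-fold higher, and 4 without background correction. With LY2157299 2 genes were 2-fold lower, against 0 without background correction and 1 each with an offset of 50, with detection required on both arrays and with the mean over probes. For knockdown with inhibitor against shCtr 2 genes were 2-fold higher, against 0 without background correction and 1 each with an offset of 50 and with the mean over probes; 4 were 1.5-fold higher, against 2 without quantile normalization; and 1 was 1.5-fold lower, against 0 without background correction, with an offset of 50, with detection on both arrays and with the mean over probes. Leaving out background correction compresses all differences by its construction: over all genes it gave 86 higher and 31 lower with TGFB3 in place of 200 and 124, 49 and 15 after knockdown in place of 124 and 42, 1 and 5 with LY2157299 in place of 6 and 23, and 37 and 20 for knockdown with inhibitor in place of 101 and 57. An offset of 50 gave 120 and 53, 68 and 22, 2 and 12, and 53 and 27, and the authors' values gave 339 and 232, 175 and 69, 11 and 50, and 156 and 98, in the same order. Apart from that compression, the cause of these shifts was not tested. FHL2 has no value with LY2157299 where detection is required on both arrays. No replicate could be left out, with 1 array per condition. No paired analysis was possible because the labels give no replicate numbers and each condition has 1 array. Signal over background limits genes near the floor, among them MYLK with shCtr, FHL2 with LY2157299, TPM2, FHL3, PDLIM7 and MYL9.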
